A study of Homo sapiens with 5 samples.

Results

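Wild-type H9 human embryonic stem cells grown in 5iLAF medium were compared with wild-type H9 cells grown in 2iLAF medium, gene by gene. The comparison used 2 of the 5 libraries of the series, 1 for each medium. Both come from the same established line (H9), carry no edit of B3GALT5 and differ in the labels only in medium and in the recorded state, naive for 5iLAF and primed-naive for 2iLAF. The design text names the 2iLAF library as the control sample. The other 3 libraries were wild-type cells in basal medium, recorded as primed, and B3GALT5-/- cells in basal medium (primed) and in 2iLAF (naive). They are cited only for the level of a gene described here. Poly(A) RNA was sequenced, and expression is given in TPM, a length-scaled share of the transcripts of a library. Of 26506 genes in the table, 14770 reached 1 TPM in at least 1 of the 2 libraries and entered. Each was described by log2((5iLAF TPM + 1)/(2iLAF TPM + 1)), called the log2 ratio, so a positive value is a higher level in 5iLAF. Levels written as 1 value against another are TPM in 5iLAF against TPM in 2iLAF, and a median given with a list is the median log2 ratio of its members that entered. With 1 library for each medium there is no replicate, no error between cultures and no test, and every value describes these libraries alone. Depth is unknown, and the labels give neither passage number nor time in each medium.

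Human embryonic stem cells are kept in the primed state, a counterpart of the epiblast after implantation, and can be reset to a naive state, which resembles the epiblast before it. 5iLAF is a naive conversion medium that combines a set of kinase inhibitors with the factors activin A, FGF2 and LIF. LIF acts through its receptor, gp130 and STAT3, activin acts through the SMAD pathway that NODAL also uses, and FGF2 acts through receptor tyrosine kinases and ERK. The inhibitors in the 2iLAF of this study are not listed in the sources used here. NODAL and WNT signals also pattern the primitive streak, from which mesoderm and endoderm form, and inhibitors of both pathways mark the anterior side, where the forebrain forms.

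Between the media 1925 genes were higher in 5iLAF and 1502 were lower by 2-fold or more on that scale, which is 13.0% and 10.2% of the genes that entered, or 23.2% in both directions. The median log2 ratio over all entered genes was 0.09. Those shares are the background against which each gene list below is read. Of the higher genes 678 were below 1 TPM in 2iLAF, with 184 listed at 0 there. Of the lower genes 609 were below 1 TPM in 5iLAF, with 108 listed at 0 there. On the same scale 93 higher and 38 lower genes reached both 16-fold and 10 TPM in the library of their higher level. A gene below 1 TPM in either library entered through the other, so the filter fixes its direction in each list below. Among 7673 genes at or above 10 TPM in both libraries, 744 (9.70%) differed by 2-fold or more. Across the entered genes the Pearson correlation of log2(TPM + 1) was 0.87, and genes are not independent replicates. Counts fell with a larger pseudocount, to 1018 higher and 663 lower with 5 TPM added in place of 1. At the entry threshold, 163 genes had their higher level between 1 and 1.1 TPM, with a largest log2 ratio of 1.06 in size, and 198 genes between 0.9 and 1 TPM stayed out, with a largest of 0.99.

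**Figure D1:**
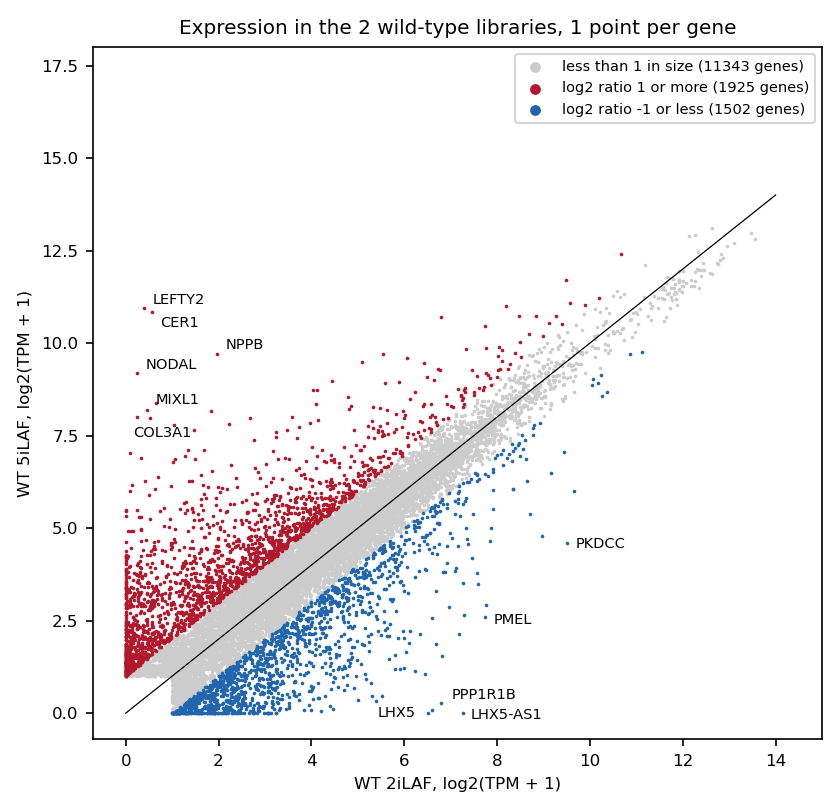
Each point is 1 of the 14770 genes that entered, with log2(TPM + 1) in WT 2iLAF on the x axis and in WT 5iLAF on the y axis, 1 library each, and the line marks equal levels. The 1925 red genes were 2-fold or more higher in 5iLAF and the 1502 blue genes 2-fold or more lower, with LEFTY2, CER1 and NODAL near 0 in 2iLAF and LHX5 and LHX5-AS1 at 0 in 5iLAF.

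The differences also moved with base composition. Genes were divided into 5 equal groups by the GC content of their GENCODE transcripts (14017 genes, 94.9% of those entered). The median log2 ratio went from 0.25 in the group with the lowest GC to -0.16 in the group with the highest, and the share of lower genes went from 3.85% to 18.4%. The share of higher genes stayed between 10.8% and 14.5%. Across 5 groups by transcript length the medians lay between 0.05 and 0.12. By chromosome the lowest median was that of chromosome 19 at -0.16, with 5.38% of 1097 genes higher and 14.2% lower, and the highest that of the X chromosome at 0.26 (539 genes). The part of base composition in the gene lists was measured by centring the ratios within 20 bins of GC content. That gave 1631 higher and 1498 lower genes, and each list median of 1 or more in size kept its sign and stayed at 1 or more.

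The 3 highest ratios were those of NODAL and of inhibitors of its pathway. LEFTY2, a feedback inhibitor of NODAL, stood at 1985 TPM in 5iLAF and 0.32 in 2iLAF, a log2 ratio of 10.56. CER1, cerberus, a secreted antagonist of NODAL, BMP and WNT ligands, stood at 1832 and 0.48 TPM (log2 ratio 10.27). NODAL itself stood at 586 and 0.18 TPM (log2 ratio 8.96). In wild-type basal medium these 3 stood at 13.2, 3.41 and 21.7 TPM, so each was lower in 2iLAF than in basal medium, and in the B3GALT5-/- library in 2iLAF they stood at 1385, 852 and 406 TPM. LEFTY2, CER1 and NODAL, in this order, had the highest ratios of the 9542 genes that reached 10 TPM in either library. Next came COL3A1, a fibrillar collagen, at 258 against 0.19 TPM, NPPB, a natriuretic peptide, at 840.4 against 2.91, and MIXL1, a homeobox gene of the primitive streak, at 292 against 0.38. IGFBP7, a secreted binding protein, stood at 253 against 0.43 TPM, APLNR, the apelin receptor of early mesendoderm, at 130.3 against 0.07, and BGN, the proteoglycan biglycan, at 199 against 1.76. The rest of the 20 highest were CST1 (219 against 1.06 TPM), T, MYL4, EOMES, LEFTY1, ABHD12B (62.7 against 0.06 TPM), WNT8A, NTS, SP5, MEG3 and RNASE1 (81.9 against 0.61 TPM). In 2iLAF 13 of these 20 were below 1 TPM and the highest stood at 2.91. Their range in 5iLAF was 62.7 to 1985 TPM. In the B3GALT5-/- library grown in 2iLAF the same 20 genes stood between 42.2 and 1871 TPM, and in wild-type basal medium 11 were below 1 TPM.

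Among the lowest ratios were forebrain transcription factors and genes of tight epithelium. LHX5-AS1, the antisense RNA beside LHX5, was listed at 0 in 5iLAF, against 152 TPM in 2iLAF. LHX5, a LIM homeobox gene of the forebrain, stood at 89.7 TPM and was also listed at 0. The strand setting of the counting is not stated, so reads of this pair may not be separable. PPP1R1B, a regulator of protein phosphatase 1, stood at 0.20 TPM in 5iLAF against 110.4 in 2iLAF, and FEZF1, a zinc finger factor of the forebrain, at 0.06 against 96.6. CLDN4 and CLDN3, claudins of tight junctions, stood at 1.94 against 111 and 0.39 against 45.2 TPM. PKDCC, a secreted tyrosine kinase, held the highest level of the group in 2iLAF, at 732 TPM against 23.02 in 5iLAF. SLC7A3, a cationic amino acid transporter, stood at 6.62 against 216 TPM, PMEL, a melanosome protein, at 5.01 against 213, and ID4, an inhibitor of bHLH factors, at 0.28 against 31.2. The others of the 20 lowest were TTYH1 (1.09 against 86.3 TPM), GDPD2 (1.22 against 73.7), SHISA2 (0.25 against 40.9), UBE2L6 (3.39 against 144), LAD1 (0.38 against 38.7), EEF1A2 (1.34 against 63.2), WFDC2 (5.24 against 156), SOX21, MAL2 and HESX1. In wild-type basal medium these 20 had a median of 15 TPM, against 93.1 in wild-type 2iLAF, 1.25 in wild-type 5iLAF and 1.04 in the B3GALT5-/- library in 2iLAF.

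**Figure D2:**
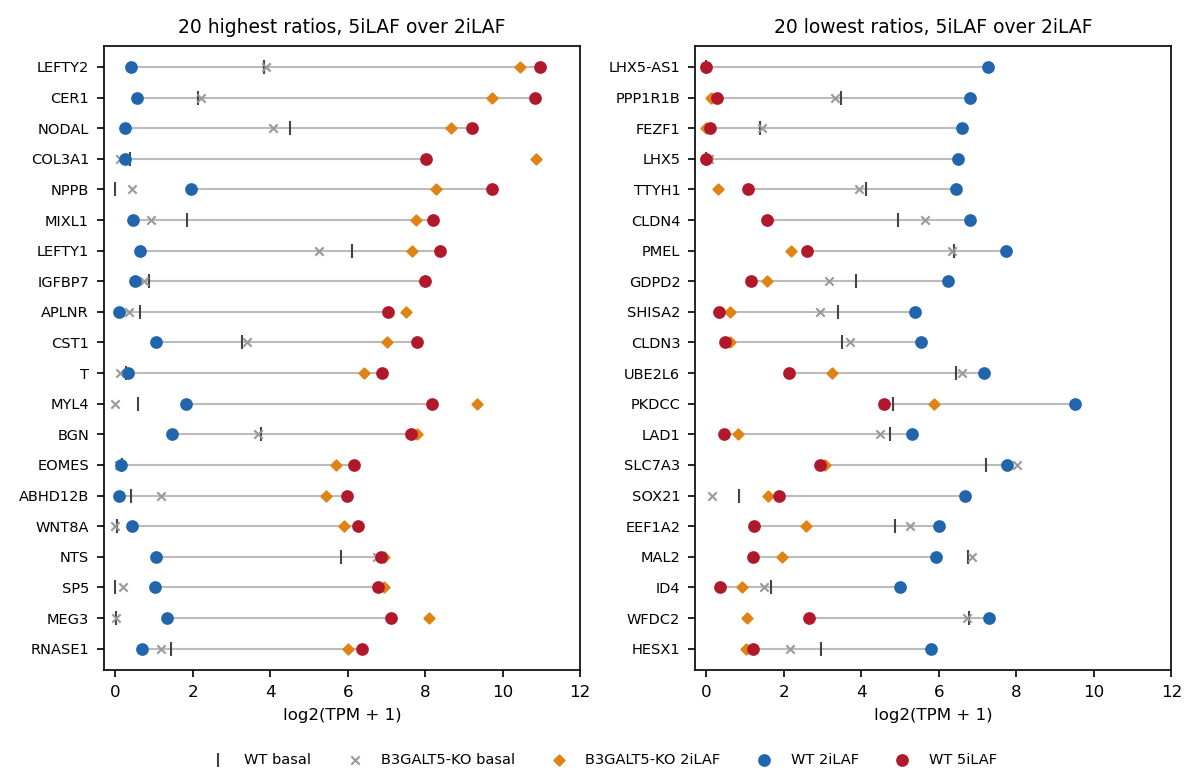
For the 20 highest (left) and 20 lowest (right) log2 ratios among genes reaching 10 TPM, each row gives log2(TPM + 1) on the x axis in WT 5iLAF (red), WT 2iLAF (blue) and the other 3 libraries, 1 library a symbol. On the left the 2iLAF points lie at or below 2.91 TPM, and on the right the 5iLAF points lie at or below 23.02 TPM, that of PKDCC.

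NODAL is a TGF-beta family ligand that signals through activin receptors, a co-receptor of the CRIPTO family and SMAD2 and SMAD3, which act on DNA together with the forkhead factor FOXH1. It is known to induce its own gene and those of its LEFTY inhibitors. Of 5 activin-type ligands 4 were higher in 5iLAF and 0 lower, with a median log2 ratio of 3.48. In 2iLAF 2 of the 5 reached 1 TPM. NODAL, INHBA and INHBB entered through 5iLAF alone, so the filter fixes their direction. GDF3, a ligand of the same family, stood at 136 against 2.22 TPM, INHBA, the activin A subunit, at 15.5 against 0.48, and INHBB, the activin B subunit, at 2.96 against 0.12. GDF1 was the exception, at 0.45 against 1.72 TPM. In wild-type basal medium NODAL stood at 21.7 TPM and GDF3 at 13.8, so the wild-type 2iLAF library held less of both and the 5iLAF library more. In the B3GALT5-/- library in 2iLAF NODAL and GDF3 stood at 406 and 106 TPM, above both basal values.

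Receptors and intracellular parts of the pathway differed less. Of 10 co-receptors, receptors and effectors 3 were higher, 0 lower (median 0.28), and 1 was below 1 TPM in both libraries. TDGF1, the co-receptor CRIPTO, stood at 359 against 69.3 TPM, its relative CFC1 at 10.1 against 1.43, and SMAD3 at 37.5 against 9.48. FOXH1 was abundant in both libraries, at 102 and 126 TPM, and the receptors ACVR1B (24.96 against 38.7 TPM) and ACVR2B (11.1 against 21.3 TPM) were below the 2-fold size on the lower side. SMAD2 stood at 12.3 against 8.58 and SMAD4, the shared partner of these SMADs, at 18.5 against 23.9 TPM.

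Inhibitors and feedback genes of the pathway were higher in 7 of 8 cases, with 0 lower and a median of 2.70. In 2iLAF 5 of the 8 reached 1 TPM, and LEFTY1, LEFTY2 and CER1 entered through 5iLAF alone. LEFTY1 stood at 332 against 0.57 TPM beside LEFTY2. The LEFTY genes are near-identical neighbours whose reads the counting may divide, and summed they stood at 2317 TPM in 5iLAF against 0.89 in 2iLAF. PMEPA1, which restrains SMAD signalling, stood at 49.7 against 3.75 TPM, SKIL, a SMAD co-repressor, at 26.7 against 6.03, SMAD7, an inhibitory SMAD, at 25.4 against 10.96, and FST, follistatin, an activin trap, at 179 against 45.03. DACT2 was the 1 member short of 2-fold, at 7.95 against 9.22 TPM. In wild-type basal medium LEFTY1 stood at 67.9 and SKIL at 34.6 TPM, above wild-type 2iLAF in both cases. In the B3GALT5-/- library in 2iLAF LEFTY1 and SKIL stood at 202 and 23.15 TPM. In a bulk library, fewer cells that express a gene and less RNA per cell cannot be told apart, and this holds for every level given here.

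The CER1 promoter is shown because CER1 had the second highest ratio and its window holds matches to motifs of both DNA-binding partners of the pathway. The 250 bases before its start (RefSeq, GRCh38.p14, minus strand, chr9:14722734-14722983, written 5′ to 3′) are given with matches to the SMAD box CAGAC and to the FOXH1 motif TGTNNATT, on either strand, in capitals.
CER1: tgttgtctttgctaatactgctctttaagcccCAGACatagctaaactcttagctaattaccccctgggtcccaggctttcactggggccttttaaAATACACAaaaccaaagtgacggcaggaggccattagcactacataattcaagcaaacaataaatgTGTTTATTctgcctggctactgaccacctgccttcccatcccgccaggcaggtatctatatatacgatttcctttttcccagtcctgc
The window holds 1 SMAD box and 2 FOXH1 motifs, which do not overlap. Of 35116 promoter windows of that length, 38.0% hold the SMAD box at least once and 1.01% hold 2 or more FOXH1 motifs. Among 4 higher activin-type ligands 1 window holds the SMAD box (NODAL) and 1 the FOXH1 motif (GDF3), and among the 5 higher inhibitors with a window 3 and 1 do. A match describes letters and is not a measured site.

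Ligands of the FGF family were higher in 6 of 9 cases and lower in 0 (median 3.27), with 1 below 1 TPM in both libraries. FGF17 stood at 122 against 1.41 TPM, FGF8, a ligand of the gastrulating embryo, at 115 against 1.8, FGF4, a ligand of the preimplantation epiblast, at 41.2 against 1.43, FGF19 at 36.4 against 1.77, FGF18 at 9.9 against 0.57 and FGF13, an intracellular member of the family, at 72.99 against 17.2. FGF2, which is also a component of 5iLAF, stood at 18.4 against 30.1 TPM. Of 5 receptors 2 were lower and 0 higher (median -0.96). FGFR3 stood at 40.7 against 178 TPM and FGFR1 at 139.9 against 374, both lower in 5iLAF, FGFR2 at 55.4 against 109 was just short of 2-fold (log2 ratio -0.96, and -1.06 after median-ratio scaling), and FGFR4 at 43.3 against 51.5 and FGFRL1 at 17.95 against 13.7 differed less.

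Some feedback genes that ERK induces were low in both libraries when set beside basal medium. DUSP6, an ERK phosphatase, stood at 2.98 TPM in 5iLAF, 1.24 in 2iLAF and 303 in wild-type basal. SPRY4, an inhibitor of receptor tyrosine kinase signalling, stood at 6.17, 1.91 and 97.1 TPM, and the ETS factors ETV4 and ETV5 at 7.44 against 6.3 and 1.78 against 0.61 TPM, against 190.4 and 42.6 in basal medium. Between the media 6 of the 19 feedback genes were higher in 5iLAF and 1 lower (median 0.73), a share above the background on the higher side. The higher ones included IER3, an immediate-early gene that NF-kB also induces, at 135 against 7.97 TPM, SPRY2 at 57.8 against 13.2, PHLDA1 at 30.2 against 7.13 and SPRED2, an inhibitor of RAF activation, at 15.7 against 3.45. DUSP2 was lower, at 0.73 against 8.99 TPM. The feedback genes did not all lie on 1 side between the media.

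WNT ligands act through frizzled receptors and LRP co-receptors to stabilise beta-catenin, which activates targets with TCF and LEF factors. Of 15 WNT ligands 9 were higher in 5iLAF, 1 was lower (median 2.50) and 3 were below 1 TPM in both libraries. Of the 12 that entered 5 reached 1 TPM in 2iLAF. The others entered through 5iLAF alone, so the filter fixes their direction. WNT8A, a ligand of the primitive streak, stood at 76.1 against 0.34 TPM, WNT3, needed for the streak in the mouse, at 48.4 against 2.06, WNT10B at 18.3 against 0.44, WNT5A at 23.2 against 0.99 and WNT5B, both of the non-canonical branch, at 9.68 against 0.39. WNT7B was the lower one, at 0.30 against 2.64 TPM. WLS, which carries WNT proteins to the cell surface and was picked after its values were seen, stood at 328 against 16.03 TPM.

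The list of WNT antagonists was divided, and DKK1 and CER1, which also inhibit WNT signals, are counted in other lists. SFRP1 stood at 26.7 TPM in 5iLAF and 501 in 2iLAF, FRZB at 8.37 against 35.6 and SFRP5 at 0.06 against 13.3, which makes 3 of 10 lower (median -0.73). DKK2 was the 1 higher member of this list, at 2.01 against a listed 0 TPM, and 3 were below 1 TPM in both libraries. SFRP2, a primed marker, was low in both media, at 28.5 and 45.2 TPM, against 469.7 in basal medium. FZD7, a frizzled receptor picked after its values were seen, stood at 23.96 against 231 TPM, and TCF7L1, a repressor of WNT targets picked in the same way, at 13.3 against 136.

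Target genes of beta-catenin were higher in 14 of 20 cases and lower in 0, with a median of 2.19. SP5, a zinc finger factor that WNT signals induce directly, stood at 109.6 against 1.02 TPM. CDX1, a caudal homeobox gene, reached 39.3 TPM against a listed 0 in 2iLAF. LGR5, an R-spondin receptor, stood at 12.96 against 0.04, RNF43, a ligase that removes frizzleds, at 18.2 against 1.56, LEF1 at 16.2 against 1.42 and AXIN2, a feedback inhibitor, at 74.6 against 20.8 TPM. DKK1, a secreted inhibitor of LRP co-receptors, stood at 67.7 against 2.95, NKD1 at 15.7 against 1.64, TCF7 at 30.3 against 5.53 and MYC at 54.8 against 11.8 TPM. CCND1, cyclin D1, was at 101 TPM in 5iLAF and 147 in 2iLAF, and ZNRF3 at 9.34 and 8.12. AXIN2 in 2iLAF was above the 9.56 TPM of wild-type basal medium, whereas SP5 was listed at 0 in basal medium.

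The SP5 promoter is shown for the density of its TCF and LEF motif. Its 250 bases before the start (RefSeq, GRCh38.p14, plus strand, chr2:170715087-170715336) are given with each CTTTGA, on either strand, in capitals.
SP5: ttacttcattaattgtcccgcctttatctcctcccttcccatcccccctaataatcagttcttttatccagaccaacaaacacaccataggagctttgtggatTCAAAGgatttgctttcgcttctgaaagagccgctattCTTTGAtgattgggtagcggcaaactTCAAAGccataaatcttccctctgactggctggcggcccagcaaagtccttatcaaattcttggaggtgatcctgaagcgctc
The window holds 3 matches, a number that 23 of the 35116 windows (0.07%) reach. At least 1 match is in 11.2% of all windows and in 4 of the 9 windows of higher WNT targets, those of SP5, SP8, DKK1 and CDX2.

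**Figure D3:**
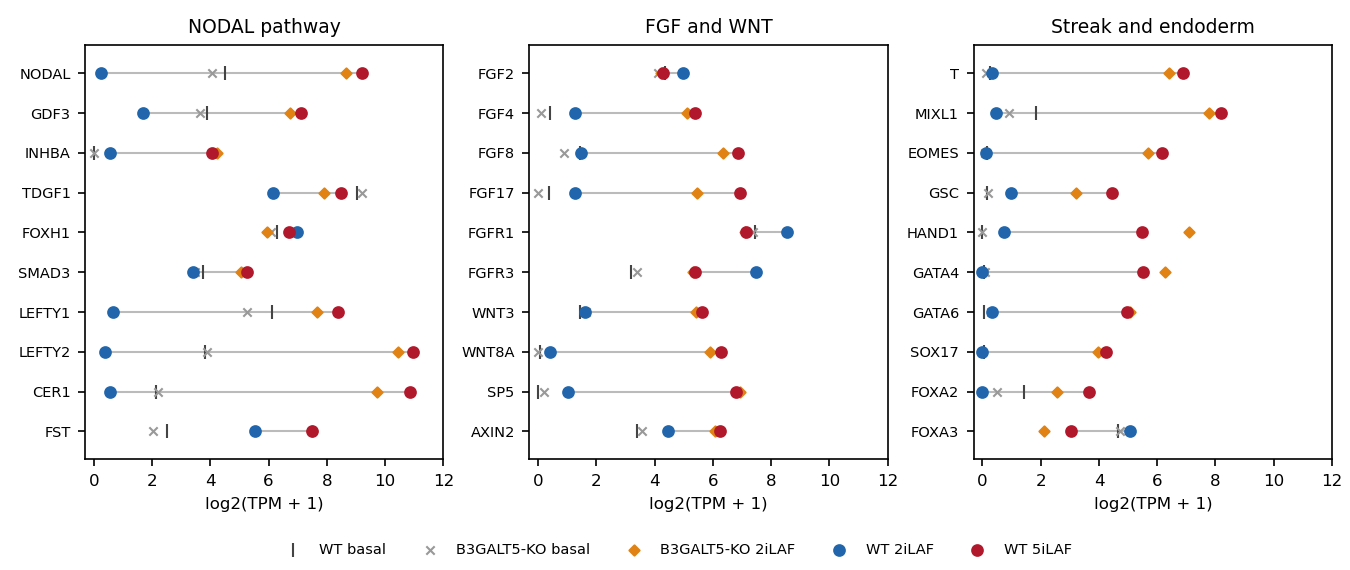
Levels of NODAL pathway genes (left), FGF and WNT genes (centre) and genes of the primitive streak and endoderm (right) as log2(TPM + 1), with 1 symbol for each of the 5 libraries. WT 5iLAF (red) lies to the right of WT 2iLAF (blue) except for FOXH1, FGF2, FGFR1, FGFR3 and FOXA3.

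Genes of the primitive streak and early mesoderm, a list of transcription factors and the receptors PDGFRA and KDR, were higher in 14 of 20 cases and lower in 0, and 4 were below 1 TPM in both libraries. Of the 16 that entered 3 reached 1 TPM in 2iLAF, so most entered through 5iLAF alone, and a gene that enters so lies on the higher side by the filter. T, brachyury, the T-box factor of the streak and notochord, stood at 118 against 0.26 TPM. EOMES, the T-box factor that acts ahead of it, stood at 70.2 against 0.10, MIXL1 as given above, GSC, goosecoid of the organiser, at 20.8 against 0.98, and HAND1, a bHLH factor of extraembryonic and heart mesoderm, at 43.5 against 0.66 TPM. Several other factors of the list were at low levels in 5iLAF, with EVX1 at 4.93, MSGN1 at 4.15, MESP1 at 3.56, MEOX1 at 1.83 and TBX20 at 1.81 TPM. In 2iLAF these stood between a listed 0 and 0.14 TPM. PDGFRA, a receptor of mesoderm and primitive endoderm, stood at 14.4 against 0.98 TPM, and KDR, a receptor of vascular progenitors, at 6.95 against 2.62. SNAI1 did not differ, at 17.5 and 17.8 TPM, and neither TBX6 (3.8 against 4.27 TPM) nor FOXF1 (0.14 against 0.04 TPM) stood out. The median of the entered members was 2.22, and 0.81 with a pseudocount of 5.

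Endoderm genes were higher in 9 of 18 cases and lower in 1 (median 2.96), with 6 below 1 TPM in both libraries and 6 that entered through 5iLAF alone. GATA4 and GATA6, zinc finger factors of endoderm and heart, stood at 44.2 and 30.5 TPM in 5iLAF, against a listed 0 and 0.25 in 2iLAF. SOX17 and FOXA2, factors of definitive endoderm, stood at 17.7 and 11.7 TPM, and both were listed at 0 in 2iLAF. CXCR4, a chemokine receptor of definitive endoderm, stood at 31.9 against 2.45 TPM, HNF4A at 8.36 against 0.23, APOA1 at 31.6 against 3.1 and APOA2 at 25.2 against 2.95. FOXA3 lay the other way, at 7.17 TPM in 5iLAF and 32.7 in 2iLAF. Transcripts of later liver cells stayed low in both libraries, with AFP at 0.84 and 0.84 TPM, TTR at 0.69 and 0.32, and ALB at 0.11 and 0.04. Of 9 hepatocyte markers only the apolipoproteins APOA1 and APOA2 reached 1 TPM in either library.

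HOX genes, mostly of the anterior groups that beta-catenin and retinoic acid signals are known to activate in the embryo, summed to 75.7 TPM in 5iLAF and 0.38 in 2iLAF over 15 genes. The list also holds the more posterior HOXB6, HOXB7, HOXB8 and HOXB9. The 8 genes that entered reached 1 TPM in 5iLAF only, so the filter fixes their direction, and the other 7 were below 1 TPM in both libraries. HOXB2 and HOXB1 stood at 15.2 and 13.98 TPM in 5iLAF and were listed at 0 in 2iLAF. HOXB6 stood at 4.61 and HOXB3 at 3.15 TPM, again against a listed 0.

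Among the 44 gene lists the anterior neural list had the largest share of its entered members lower. Of 22 genes 10 were lower in 5iLAF, 0 higher, and 11 were below 1 TPM in both libraries. Beside LHX5 and FEZF1, OTX2, a homeobox factor of epiblast and forebrain, stood at 40.6 TPM in 5iLAF and 421 in 2iLAF. HESX1, a homeobox repressor of the anterior forebrain, stood at 1.28 against 54.5 TPM, SIX3, which represses WNT genes in the forebrain, at 0.14 against 20.1, SOX21 at 2.68 against 101, POU3F1 at 1.81 against 20.2, ZIC5 at 4.05 against 26.8, OTX1 at 0.08 against 5.05 and LMO1 at 10.7 against 58.9. Genes of the committed neural plate were near 0 in both media, with PAX6 at 0.02 and 0.27 TPM, SOX1 at a listed 0 and 0.27, and RAX at 0.08 and 0.18. SOX3 differed little (6.98 against 8.07 TPM). POU3F1 and ZIC5 stood at 36.2 and 27.7 TPM in wild-type basal medium, so they were lower in 5iLAF than in either of the other wild-type media, while SIX3 (0.08 TPM) and LHX5 (a listed 0) were not expressed at 1 TPM in basal medium. Without the 1 TPM filter the median of the list was -0.51, against -3.34 over the 11 that entered, of which 4 did so through 2iLAF alone. Neuron markers did not share this direction. STMN2, a tubulin-binding protein of neurons, stood at 49.97 against 1.4 TPM and TUBB3 at 603 against 478, with 1 of 10 neuron markers higher, 1 lower (SYT1, 3.77 against 9.03 TPM) and 5 below 1 TPM in both libraries. Neural crest markers had 4 of 8 lower and 2 higher, with NGFR at 1.12 against 18.9, ERBB3 at 7.67 against 28.9 and SOX10 at 1.3 against 8.37 TPM.

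Core pluripotency genes were expressed in both libraries and differed in both directions, with 2 of 15 higher and 6 lower in 5iLAF (median -0.69). POU5F1 (OCT4) stood at 1944 TPM in 5iLAF and 1099 in 2iLAF, short of 2-fold. NANOG, a homeobox factor of pluripotent cells and a known target of activin signalling, stood at 124 against 16.5 TPM, and GAL, galanin, at 299.5 against 27.1. SOX2 lay the other way, at 65.6 TPM in 5iLAF and 324 in 2iLAF, as did LIN28A, an inhibitor of let-7 maturation, at 377 against 1233, SALL4 at 74.5 against 167, TRIM71 at 50.2 against 141, TERT, the telomerase subunit, at 0.60 against 4.0 and UTF1 at 0.11 against 4.62 TPM. FOXD3 was at 0.29 against 1.33 TPM, on the lower side and short of the size rule only with 1 TPM added to each level (log2 ratio -0.85). DPPA4 (319.8 against 282 TPM), L1TD1 (160.0 against 119 TPM), ZFP42 (83.9 against 95.1 TPM) and LIN28B (44.3 against 49.1 TPM) were close. Against wild-type basal medium NANOG was near its basal level of 171 TPM in 5iLAF and low in wild-type 2iLAF. SOX2, at 161 TPM in basal medium, was low in 5iLAF and high in wild-type 2iLAF. In the B3GALT5-/- library in 2iLAF NANOG and SOX2 stood at 99.01 and 55.27 TPM.

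Naive markers checked the label of the 5iLAF library. Of 25 markers 8 were higher in 5iLAF, 1 lower, and 12 were below 1 TPM in both libraries. DNMT3L, a cofactor of DNA methyltransferases, stood at 76.4 against 1.57 TPM, KLF2 at 14.8 against 0.06, TBX3 at 9.61 against 0.08, KLF5 at 9.74 against 1.9, DPPA2 at 9.95 against 1.95, NLRP7 at 5.55 against 0.32, DPPA3 at 4.1 against 1.09 and SUSD2, a surface marker of naive cells, at 14.8 against 3.29. KLF4 was the lower one, at 7.71 TPM in 5iLAF and 20.5 in 2iLAF, and TFAP2C, which human naive cells need, was at 55.2 and 36.5. Markers held to be specific to human naive cells were low in the library labelled naive. KLF17 stood at 0.12 TPM in 5iLAF and a listed 0 in 2iLAF, DPPA5 at 0.20 and a listed 0, ARGFX at 0.05 and a listed 0, and TFCP2L1 at 2.62 and 2.15. On these markers the data go against the naive label, and the library is called here by its medium. The median of the 13 entered markers was 1.88, against 0.99 with a pseudocount of 5 and 0.25 without the filter.

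Primed markers were lower in 5iLAF in 11 of 20 cases and higher in 3, with a median of -1.16. DNMT3B, the de novo DNA methyltransferase of primed cells, stood at 133 against 697 TPM, THY1 at 14.3 against 65.7, USP44 at 4.53 against 45.98, CD24 at 412 against 1329.9, ZIC2 at 34.1 against 107, SALL2 at 49.2 against 153 and VSNL1 at 2.73 against 14.4. DNMT3B and SALL2 in wild-type 2iLAF were close to their basal levels of 754 and 201 TPM, whereas THY1 and VSNL1 were far below theirs, 716 and 117 TPM. In the B3GALT5-/- library in 2iLAF DNMT3B and SALL2 stood at 135 and 32.96 TPM. The higher ones were NTS, neurotensin, at 115 against 1.09 TPM, NEFL, a neurofilament, at 55.9 against 9.01 and STC1 at 23.4 against 5.85. Of 9 genes of DNA methylation only DNMT3L and DNMT3B were past 2-fold (median 0.04, and -0.11 after centring by GC content). That is 11.1% higher and 11.1% lower, close to the 13.0% and 10.2% over all genes that entered. DNMT1, the maintenance enzyme, stood at 60.7 against 76.4, DNMT3A at 69.5 against 64.8 and TET1, which oxidises methylcytosine, at 21.02 against 13.7 TPM.

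Of 13 surface markers of stem cell state 3 were higher and 4 lower (median -0.25). IL6ST stood at 31.95 against 1.72 TPM, CD9 at 229 against 48.6 and SUSD2 as above, while PROM1, the CD133 antigen, stood at 14.2 against 41.9, ALPL, alkaline phosphatase, at 128 against 272, and PODXL, which carries the TRA-1-60 epitope, at 411 against 809.7, just short of 2-fold. IL6ST is gp130, the signalling chain of the LIF receptor. Its partner LIFR stood at 11.7 against 2.56 TPM, the kinase JAK1 at 26.6 against 5.48, the related receptor OSMR at 5.26 against 1.59, STAT3 at 96.8 against 74.4 and SOCS3, the feedback inhibitor that STAT3 induces, at 55.6 against 27.1. In all 6 of 13 LIF pathway genes were higher and 0 lower (median 0.93), and SOCS3 fell short after median-ratio scaling (log2 ratio 0.92). GBX2, a homeobox target of this pathway in the mouse, stood at 7.97 against 0.11 TPM. Targets SOCS2 (44.2 against 46.5 TPM), PIM1 (88.1 against 113) and PIM3 (23.3 against 28.3) were close or slightly lower.

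Genes of extraembryonic and germ cells differed in both directions. Trophoblast genes had 2 of 15 higher, 3 lower (median -0.78) and 7 below 1 TPM in both libraries, with TFAP2A at 3.12 against 17.3 TPM, GATA3 at 2.23 against 6.7 and KRT7 at 5.41 against 27.04 on the lower side and CDX2 at 7.99 against 0.44 and SLC40A1, the iron exporter, at 7.3 against 0.14 on the higher. CGA and ELF5 were listed at 0 in both. Amnion genes had 4 of 9 higher, 0 lower (median 1.16, and 0.43 with a pseudocount of 5) and 4 below 1 TPM in both, led by BAMBI, a decoy receptor of BMP, at 77.1 against 15.1 TPM, and that count rests on genes near 1 TPM (TFAP2B at 1.73, WNT6 at 1.73, both in 5iLAF). Germ cell genes had 3 of 10 lower and 0 higher (median -0.47), and 6 of the 10 entered. KIT, the receptor of stem cell factor, stood at 2.47 against 28.4 TPM, SOX15 at 41.4 against 84.3 and DAZL, an RNA-binding protein of germ cells, at 0.08 against 9.93. NANOS3 and PIWIL1 were listed at 0 in both libraries.

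Epithelial genes were lower in 5iLAF in 19 of 24 cases and higher in 0, with a median of -2.12. CDH1, E-cadherin, stood at 31.1 against 233 TPM and EPCAM, a surface adhesion molecule, at 118 against 297. CLDN4 and CLDN3, given above, had the lowest ratios of the list, and CLDN7 stood at 12.9 against 188 TPM, whereas CLDN6, the claudin of pluripotent cells, stood at 566 and 1212. Of 25 claudin genes measured, 6 were lower, 1 was higher and 13 did not enter. GRHL2, a transcription factor of epithelium, stood at 0.09 against 20.95 TPM, ESRP1, a splicing factor of epithelial cells, at 13.5 against 78.4, ST14, the protease matriptase, at 0.69 against 26.1, MAL2 at 1.28 against 59.5, RAB25 at 9.26 against 47.5, CRB3, a polarity protein, at 3.01 against 27.7, TJP3 at 3.44 against 37.9 and MARVELD3 at 0.54 against 25.1. SPINT2, a protease inhibitor, was close (224 against 264 TPM), as was GRHL1 (2.16 against 2.07 TPM). Keratins of simple epithelium did not follow, with 2 of 5 higher and 1 lower (median 0.69). KRT8 stood at 2163 TPM in 5iLAF and 764 in 2iLAF and KRT18, its partner, at 1219.9 and 412, while KRT19 was level (232 and 250.4) and KRT7 lower. In wild-type basal medium CDH1 stood at 115 TPM and CLDN4 at 29.7, so the wild-type 2iLAF library held more of both and the 5iLAF library less. In the B3GALT5-/- library in 2iLAF CDH1 and CLDN4 stood at 25.1 and 2.01 TPM, below both basal values.

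Mesenchymal genes were higher in 13 of 15 cases and lower in 0, with a median of 2.82. VIM, vimentin, stood at 2065 against 291 TPM, FN1, fibronectin, at 505 against 20.7, CDH2, N-cadherin, at 186 against 72.5 and MMP2, a matrix metalloprotease, at 212 against 12.4. In 2iLAF 10 of the 15 reached 1 TPM. Most transcription factors of the epithelial to mesenchymal transition were on the same side. Of those named here only TWIST1 and SNAI1 reached 1 TPM in 2iLAF. The others entered through 5iLAF alone, so the filter fixes their direction. ZEB1 and ZEB2, which repress CDH1, stood at 8.21 against 0.22 and 20.2 against 0.29 TPM, TWIST1 at 11.8 against 1.83, PRRX1 at 14.4 against 0.05, and SNAI2 at 16.6 TPM against a listed 0. SNAI1 was level, as given above, and TGFBI was short of 2-fold (15.04 against 9.28 TPM).

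**Figure D4:**
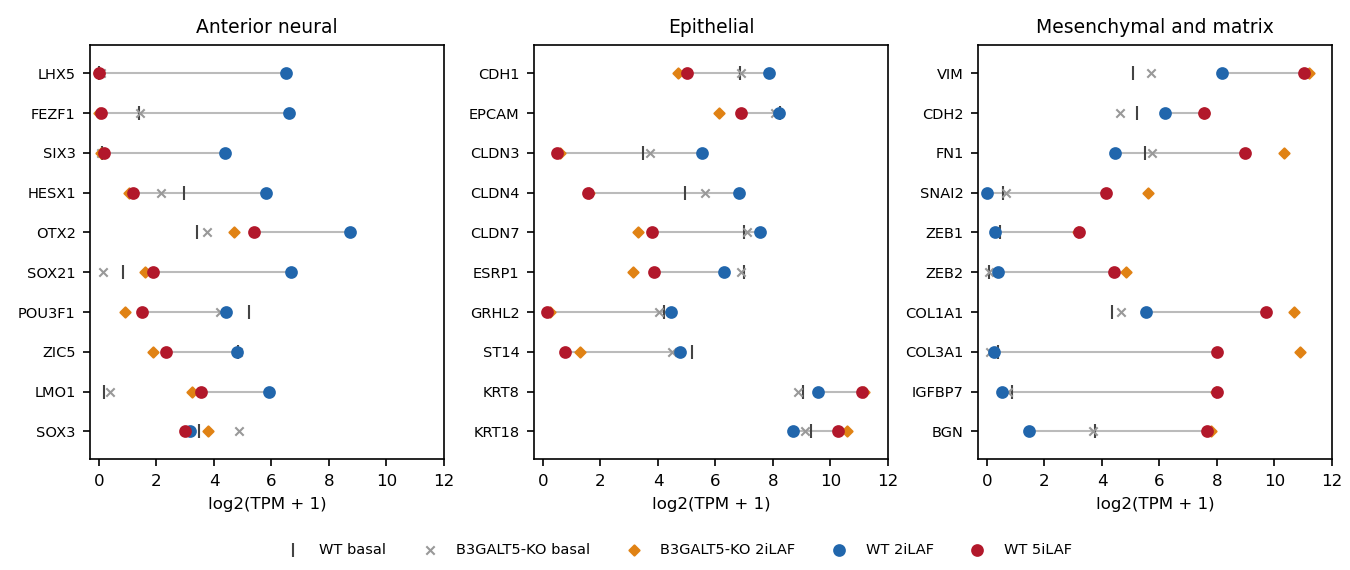
Levels of anterior neural (left), epithelial and keratin (centre), and mesenchymal and matrix genes (right) as log2(TPM + 1), with 1 symbol for each of the 5 libraries. WT 2iLAF (blue) lies to the right of WT 5iLAF (red) for the neural and epithelial genes and to the left for the keratins KRT8 and KRT18 and all 10 mesenchymal and matrix genes.

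Collagen chains were higher in 15 of 19 cases and lower in 2 (median 2.26). The fibrillar chains COL1A1 and COL1A2 stood at 827 against 45.3 and 708 against 84.6 TPM, COL5A1 and COL5A2 at 173 against 11.9 and 223 against 3.65, and the basement membrane chains COL4A1 and COL4A2 at 291 against 48.5 and 271 against 55.8. COL6A1, a chain of beaded filaments, stood at 202 against 55.7 TPM and COL12A1 at 37.2 against 2.13. COL9A3, a cartilage chain, was lower (62.8 against 145 TPM), as was COL14A1 (0.40 against 9.34 TPM). Matricellular and proteoglycan genes were higher in 14 of 19 cases and lower in 0 (median 3.17). SPP1, osteopontin, stood at 723 against 33.00 TPM, POSTN, periostin, at 29.1 against 0.12, LOX, which crosslinks collagen, at 43.8 against 0.19, TNC, tenascin C, at 97.6 against 5.94, IGFBP5 at 60.2 against 5.55, VCAN, versican, at 149 against 34.3 and LUM, lumican, at 17.99 against 0.04. CTGF did not differ (116 and 117 TPM), and CYR61, a related target of YAP, stood at 232 against 102. Among 11 YAP targets 5 were higher and 0 lower (median 0.86), with ANKRD1 at 112 against 13.8 TPM and F3, tissue factor, at 22.1 against 3.65.

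Integrins and laminins were higher in 11 of 26 cases and lower in 2 (median 0.80). Of the 23 that entered 47.8% were higher and 8.70% lower. ITGA5, the fibronectin receptor chain, stood at 146 against 15.2 TPM, ITGB5 at 215 against 43.6, ITGAV at 48.3 against 9.34 and ITGB1, the partner of many alpha chains, at 438 against 157, with LAMC1 at 141 against 55.9 and LAMB1 at 170.0 against 74.5 among laminin chains. ITGA6, a laminin receptor chain, was at 49.2 and 33.4 TPM. ITGA7 and ITGB4 were the lower ones, at 7.05 against 36.6 and 0.46 against 3.34 TPM. Smooth muscle contractile genes were higher in 6 of 13 cases and lower in 1 (median 1.26, and 0.64 without the filter). ACTA2 and ACTG2, smooth muscle actins, stood at 192 against 8.39 and 494 against 58.2 TPM, TAGLN, an actin-binding protein, at 1686 against 459.9 and CNN1, calponin, at 267 against 64.1. MYH11, the myosin heavy chain that marks mature smooth muscle, was below 1 TPM in both (0.74 and 0.99), and TPM1 stood at 896 against 1283. Cardiac genes were higher in 8 of 18 cases and lower in 0 (median 1.30, and 0.58 without the filter). Of the 18, 12 entered, and 66.7% of those were higher. MYL4 and MYL7, atrial and embryonic myosin light chains, stood at 287 against 2.56 and 428 against 16.3 TPM, ACTC1, cardiac actin, at 328 against 120.4 and NPPA at 19.9 against a listed 0. The heart factor NKX2-5 (7.92 against 6.09 TPM) did not pass 2-fold. The heart factor TBX5 was below 1 TPM in both (0.19 TPM and a listed 0), and MYH6 and MYH7 were at or below 0.06 TPM.

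Markers of fibroblasts and feeder cells moved with the matrix genes. Of 11 such markers 9 were higher in 5iLAF, 1 was lower (THY1) and 1 was below 1 TPM in both, and they summed to 2256 TPM in 5iLAF against 304 in 2iLAF and 841 in wild-type basal, where THY1 alone gave 716. Those sums share COL1A1, COL1A2, COL3A1, LUM, POSTN, DCN, ACTA2 and THY1 with the lists above. PDGFRB, a receptor of fibroblasts, stood at 14.98 against 5.6 TPM, FAP at 1.34 TPM against a listed 0, and DCN, decorin, at 0.33 TPM against a listed 0. The part of such cells in the matrix result was not tested. The table names human genes only, and the growth substrate is not given in the sources used here.

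Ligands and targets of BMP signalling differed in both directions. Of 16 genes 14 entered, with 7 higher and 3 lower (median 0.73). BMP4, a ligand of extraembryonic and streak cells, stood at 74.5 against 20.3 TPM, BMP2 at 34.5 against 2.92 and BMP7 at 66.1 against 26.9, and the homeobox targets MSX1 and MSX2 at 3.91 against 0.20 and 6.87 against 0.98. The ID genes, direct targets that inhibit bHLH factors, lay the other way, with ID1 at 128 against 306 TPM, ID3 at 64.7 against 240.4, and ID2 at 78.2 against 133, short of 2-fold. Ligands and ID targets thus stood in opposite order between the media.

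Retinoic acid is made by ALDH1A enzymes, removed by CYP26 enzymes and read by RAR receptors. Of 16 genes 3 were higher and 4 lower (median 0.31). CYP26A1, the main degrading enzyme and a retinoic acid target, stood at 66.02 TPM in 5iLAF and 325 in 2iLAF, both above the 2.2 TPM of wild-type basal medium. CRABP1 and CRABP2, carriers of retinoic acid in the cell, stood at 227 against 488 and 470.0 against 1054 TPM, and RARG at 9.96 against 62.1. RDH10, which oxidises retinol, was higher at 4.86 against 1.79, a log2 ratio of 1.07 that fell below 1 after median-ratio scaling. ALDH1A2 was at 1.1 and 0.31 TPM.

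Metallothioneins, small cysteine-rich proteins that bind zinc and copper and that metals and glucocorticoids induce, were higher in 9 of 10 cases (median 2.36), and MT3 was listed at 0 in both. MT2A stood at 935 TPM in 5iLAF and 217 in 2iLAF, MT1G at 508 against 98.5, MT1X at 430.0 against 142, MT1E at 407 against 74.5, MT1F at 312 against 28.03 and MT1H at 306 against 39.1. Genes of this cluster are near-identical and single values are uncertain, but their sum was 2954 TPM in 5iLAF, 604 in 2iLAF and 121 in wild-type basal medium. In the B3GALT5-/- libraries it was 1453 TPM in basal medium and 3166 in 2iLAF, so the basal libraries differed widely from each other. The MT2A promoter is shown for its metal response elements. The 250 bases before its start (RefSeq, GRCh38.p14, plus strand, chr16:56608334-56608583) carry each TGCNCNC, the core of that element on either strand, in capitals.
MT2A: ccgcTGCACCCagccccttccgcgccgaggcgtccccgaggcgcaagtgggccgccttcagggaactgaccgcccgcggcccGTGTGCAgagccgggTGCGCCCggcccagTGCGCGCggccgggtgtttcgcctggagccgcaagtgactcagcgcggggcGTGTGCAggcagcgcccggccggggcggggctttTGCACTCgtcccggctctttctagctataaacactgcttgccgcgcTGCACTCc
The window holds 7 matches, a number reached by 0.09% of all windows, although 49.1% hold at least 1. Windows of MT1H and MT1X, the other two members in the table, hold 8 and 4.

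Of 24 imprinted genes 5 were higher, 2 lower and 11 short of 2-fold (median 0.24), and 6 were below 1 TPM in both libraries. Of the 18 that entered 27.8% were higher and 11.1% lower, against 13.0% and 10.2% over all genes that entered. H19, a maternally expressed RNA, stood at 253 against 10.9 TPM and its paternally expressed neighbour IGF2 at 54.9 against 2.3. MEG3, maternally expressed on another cluster, stood at 138 against 1.54 TPM, while DLK1 of the same cluster, paternally expressed, lay the other way at 1.35 against 25.4. PHLDA2 stood at 21.1 against 5.48, GRB10 at 75.8 against 32.6 and NNAT at 19.4 against 73.3 TPM. SNRPN (554 against 815 TPM), MEST (136 against 188 TPM), NDN (35.3 against 33.8 TPM) and PEG10 (51.5 against 50.2 TPM) did not pass 2-fold, and PEG3 was listed at 0 in all 5 libraries.

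Genes of growth and housekeeping differed by less. Of 24 proliferation genes 0 were higher and 1 was lower (median -0.10), MCM2, a subunit of the replicative helicase, at 84.8 against 189 TPM, and MKI67 stood at 30.5 against 18.9. Of 21 p53 targets 2 were higher and 2 lower (median 0.09), shares close to the background, with CDKN1A, the p21 inhibitor, at 33.03 against 13.9 TPM and BTG2 at 49.8 against 7.71, and DDB2 at 18.97 against 63.5 and FDXR at 20.7 against 44.7 on the lower side. Cytosolic ribosomal protein genes lay slightly on the lower side. Their median log2 ratio was -0.36, 6 of 81 were positive, 1 was higher and 1 lower by 2-fold, and they summed to 215036 TPM in 5iLAF and 282602 in 2iLAF. Genes of the respiratory chain had a median of 0.03, with 0 of 85 higher and 3 lower. Zinc finger genes of the ZNF series had a median of -0.02, with 23 of 491 higher and 13 lower. EEF1A1, a translation factor and the most abundant transcript of 2iLAF, stood at 7237 against 11986 TPM. ACTB was the most abundant in 5iLAF, at 8834 against 6335 TPM.

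Glycolysis and hypoxia genes were higher in 8 of 26 cases and lower in 0, with a median of 0.45. AK4, a mitochondrial adenylate kinase induced by hypoxia, stood at 45.1 against 1.25 TPM, with 111 in basal medium, PDK1, which limits pyruvate entry into mitochondria, at 89.97 against 6.23, SLC2A3, the glucose transporter GLUT3, at 632 against 104, BNIP3 at 192 against 54.1 and LDHA at 793 against 364. GAPDH (5029.7 against 7500.3 TPM) and TPI1 (1233 against 1614 TPM) were on the lower side, and CA9 and VEGFA, also hypoxia targets, stood at 0.32 and 0.80 and at 21.8 and 20.9 TPM. Of 23 cholesterol genes 2 were higher and 0 lower around a median of 0.44. MVK, mevalonate kinase, was 1 of them (25.99 against 12.5 TPM) and fell short after median-ratio scaling (log2 ratio 0.91). Of 20 genes of the ATF4 and unfolded protein response 5 were higher and 0 lower (median 0.32), with ATF3 at 61.7 against 14.5 TPM and HSPA5, the ER chaperone BiP, at 634 against 300.3, whereas the serine synthesis enzyme PHGDH stood at 258 against 512, just short of 2-fold. HSPA5 and HERPUD1 (35.9 against 16.7 TPM) fell short after median-ratio scaling, at 0.98 and 0.97. Heat shock genes had 4 of 13 higher and 0 lower (median 0.66), with HSPB1 at 955 against 261 TPM, BAG3 at 41.6 against 12.2 and HSPA8 at 2074 against 956, while HSP90AB1 stood at 2051 against 2598.

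Genes of antigen presentation and interferon response were lower in 8 of 25 cases and higher in 2 (median -0.44). Of the 21 that entered 38.1% were lower and 9.52% higher. PSMB8 and PSMB9, subunits of the immunoproteasome, stood at 0.79 against 21.02 and 0.12 against 3.55 TPM, TAP2, a peptide transporter, at 1.15 against 9.21, and HLA-C at 139 against 281. B2M, the light chain of these molecules, lay on the other side (145 against 82.6 TPM), below 2-fold. IFITM1 and IFITM2, membrane proteins of antiviral defence that stem cells express constitutively, stood at 3325 against 721 and 735 against 274 TPM. Classical interferon targets were low in both libraries, with IFIT1 at 0.65 and 0.84 TPM, OAS1 at 0.25 and 0.65, and MX1 at 0.36 and 3.79.

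B3GALT5, the enzyme knocked out elsewhere in the series, makes the galactose link of globo-series stage-specific antigens. It stood at 2.08 TPM in 5iLAF and 5.13 in 2iLAF, a log2 ratio of -0.99 that passed the 2-fold size after median-ratio scaling (-1.07). Of 9 globo-series and early glycosphingolipid enzymes 3 were higher and 2 lower (median 0.26). UGCG, glucosylceramide synthase, stood at 30.01 against 10.2 TPM, ST3GAL2, a sialyltransferase of SSEA-4, at 44.8 against 15.5 and B4GALT6, a lactosylceramide synthase, at 7.85 against 2.64. The fucosyltransferases FUT1 and FUT2 were lower, at 1.26 against 4.18 and 1.43 against 5.79 TPM, and A4GALT, the Gb3 synthase, stood at 22.7 against 18.8. Of 9 ganglio-series enzymes 6 entered, with 2 higher and 2 lower (median -0.63). ST3GAL5, the GM3 synthase, stood at 6.57 against 1.52 TPM and ST3GAL1 at 10.5 against 1.13, while ST6GALNAC6 stood at 12.6 against 45.1, and B4GALNT1, the GM2 synthase, was level below 1 TPM (0.91 and 0.93).

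Most markers of blood and vessel cells were at or near 0 in both libraries. Erythroid markers summed to 12.6 TPM in 5iLAF and 1.18 in 2iLAF, of which HBA1 gave 8.33 and a listed 0, while HBB, at 0.21 and a listed 0 here, stood at 140.2 in wild-type basal medium. Granulocyte markers summed to 1.57 and 4.91 TPM, with S100A8 and ELANE listed at 0 in both. Of 7 lymphocyte markers PTPRC alone reached 1 TPM, at 1.57 in 5iLAF. Macrophage markers summed to 40.5 and 7.06 TPM, mostly AIF1 (24.5 against 3.38 TPM, and 20.3 in basal medium) and LYZ (8.94 against 1.6 TPM), with CD14 at 0.08 and 0.13 and CSF1R at 3.74 against 0.05. Endothelial markers summed to 13.2 and 15.9 TPM, mostly KDR and TEK (5.48 against 8.52 TPM), while PECAM1 and CDH5 were at or below 0.17 TPM in both. The 8 pluripotent markers summed to 3423 TPM in 5iLAF and 3309 in 2iLAF, against 6058 in wild-type basal medium.

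**Figure D5:**
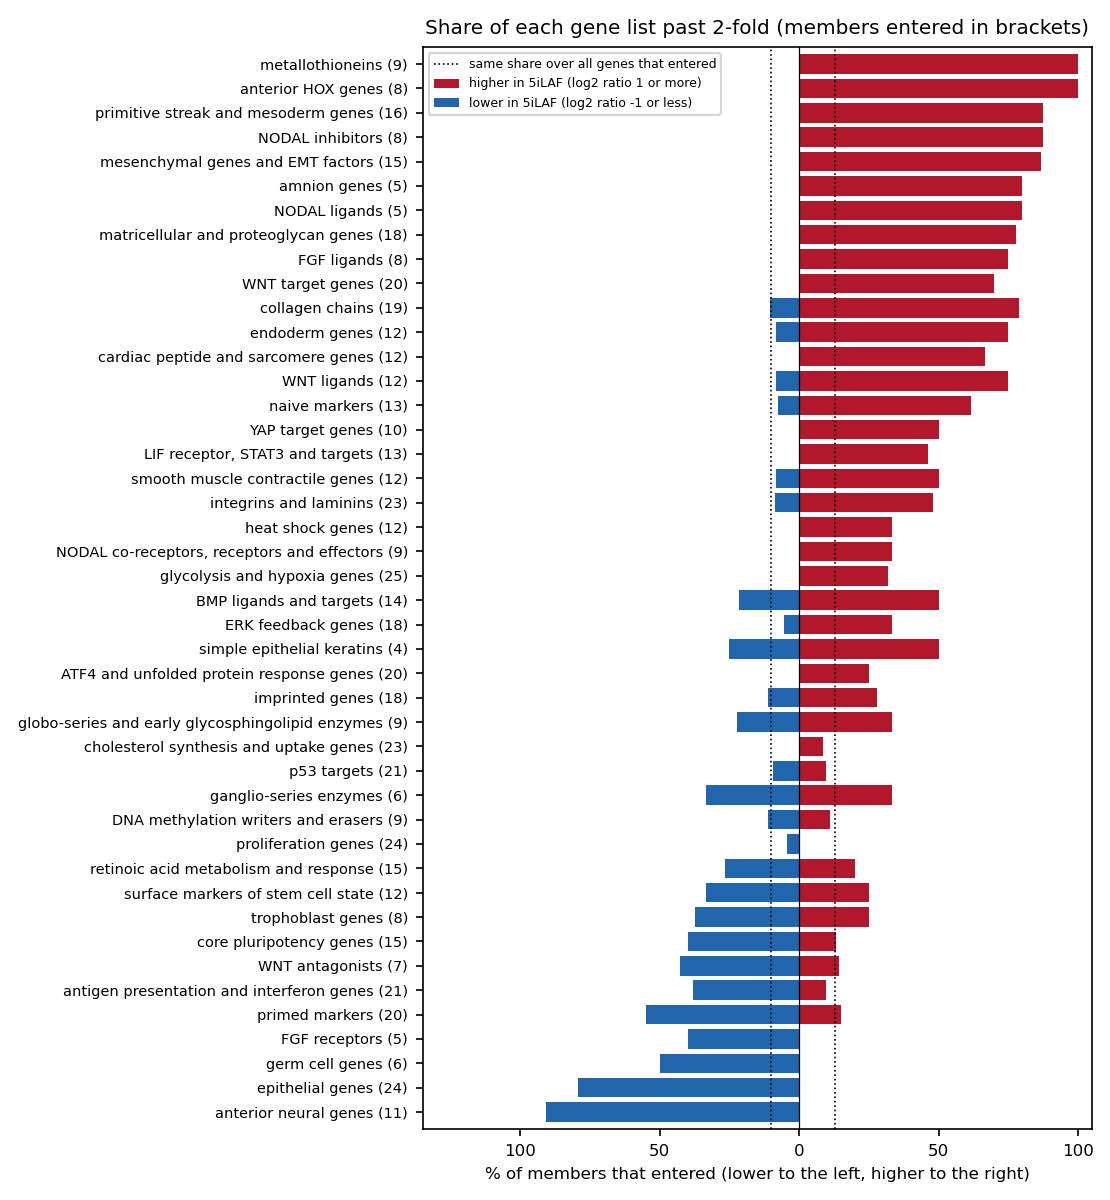
For each gene list, bars give the percent of its entered members (number in brackets) that were 2-fold or more higher in WT 5iLAF (red, to the right) or lower (blue, to the left), 1 library each. The dotted lines mark 13.0% and 10.2%, the same shares over all 14770 genes, with metallothioneins at the top and anterior neural genes at the bottom. All 8 HOX genes and most streak genes, activin-type ligands and WNT ligands entered through 5iLAF alone, so their bars follow in whole or in part from the filter. This also holds for some members of other lists, such as ZEB1 and ZEB2 among the mesenchymal genes.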

How the data were processed

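Poly(A) RNA of 5 libraries was sequenced, and wild-type 5iLAF and wild-type 2iLAF, 1 library each, were compared. The authors deposited 1 table of TPM and FPKM values per gene, estimated with RSEM, per the file headers and the submitters' processing notes. Those notes name Trimmomatic 0.39, Bowtie2 2.3.4.1, RSEM 1.2.28 and the build hg19. No source used here names the strand setting or annotation. The table holds 18 empty columns with no name, which were not used. Its FPKM steps gave no whole reads (the fullest bin of 871 low genes held 3.67%), so depth is unknown, and estimated values can divide reads between near-identical genes. Genes with 1 TPM or more in either library entered. Ratios are log2 of (TPM + 1) in 5iLAF over 2iLAF, a difference is called higher or lower at 1 or more in size, and no test was made. Each ratio compares a gene with itself. Levels of different genes are set side by side to name an abundant gene or the main part of a sum, and are not otherwise compared. Genes reaching 1 TPM numbered 13729 to 14156 per library over all 5, and the 10 most abundant genes took 6.37% to 8.20% of TPM.

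Named genes are the 20 highest and 20 lowest ratios among genes reaching 10 TPM, and members of 44 gene lists and 10 cell type marker sets. Members and lists were chosen with earlier results of these data known. Alternatives were pseudocounts of 0.1 and 5, other filters, scalings and fold sizes, FPKM values, and centring by GC content, which was added after the data were seen. Promoter windows came from RefSeq (GRCh38.p14), GC and length from GENCODE 29. The computation used Python 3.11.15, pandas 2.3.3 and numpy 2.4.6, checked on simulated data.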

Additional observations from a re-analysis of the deposited data

How the results depend on the processing

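With 1 library in each medium there is no replicate to leave out, and every limit here is one of processing. No paired analysis was possible because the labels carry no replicate numbers and each group holds 1 library. No named gene and no list median changed sign past the size rule under any alternative tried. A pseudocount of 5 left 1018 genes higher and 663 lower, and all 1681 were among the 3427 of the main comparison. A filter of 5 TPM left 987 lower. A size rule of 1.5-fold gave 3558 higher and 2673 lower, and one of 4-fold gave 639 and 435. Median-ratio scaling, which shifts every ratio by about 0.10, gave 1721 higher and 1673 lower, trimmed-mean scaling 1727 and 1668, FPKM values 1383 and 1237, a pseudocount of 0.1 2368 and 1936, and centring in GC bins (chosen after seeing the data) 1631 and 1498. Under a pseudocount of 5, 77 of 615 named genes and 9 of 54 list medians dropped below the size rule, and under median-ratio scaling 6 and 0 did. Without the 1 TPM filter 10 list medians did, since genes near 0 in both libraries then count. Genes near 1 TPM carry no known depth, and their ratios depend most on the pseudocount.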

Other observations

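The genes in these paragraphs were picked after their values were seen, apart from the histone, protocadherin and transporter families, and they describe 1 library per medium. Some abundant genes were higher in 5iLAF. S100A11 stood at 1670.0 against 110.0 TPM, S100A6 at 229 against 14.8, ANXA2, an annexin that pairs with S100A10, at 1707 against 355, and TAGLN2 at 1419 against 213. CAV1, the coat protein of caveolae, stood at 103 against 3.81 TPM and RHOB, a small GTPase of endosomes, at 425 against 15.3. FTH1, the ferritin heavy chain, stood at 5379.7 against 1631 TPM. A few genes usually read as blood cell genes were also higher. LCP1, an actin-bundling protein, stood at 85.9 against 2.09 TPM. CYBB, a subunit of the phagocyte oxidase, stood at 23.6 against a listed 0, and NCKAP1L at 18.3 against a listed 0. PTPRC stood at 1.57 against a listed 0 TPM and CD14 at 0.08 against 0.13. Of the 9 macrophage markers reported above 3 were higher, 0 lower and 4 below 1 TPM in both libraries. The part of blood cells in these values was not tested.

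Genes of the other direction included MFGE8, a secreted glycoprotein, at 63.1 against 809 TPM, CACNG7, a calcium channel subunit, at 3.41 against 80.2, and immune genes outside the list reported above. CD74, the invariant chain, stood at 3.68 against 42.6 TPM, HLA-DOA at 0.62 against 22.98, CD40 at 0.38 against 18.6 and IDO1, a tryptophan-degrading enzyme, at 1.87 against 28.4. Amino acid transporters lay on both sides, with SLC7A5, a carrier of large neutral amino acids, at 544 against 88.9 TPM, SLC7A8, a carrier of the same class, at 13.7 against 86.99, and SLC7A3 at 6.62 against 216. Over 255 solute carrier genes that entered, 42 were higher and 36 lower. That is 16.5% and 14.1%, close to the 13.0% and 10.2% over all genes that entered.

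Of 35 histone genes that entered 16 were higher in 5iLAF and 2 lower, with a median log2 ratio of 0.85, and they summed to 373 TPM against 95.5. HIST1H2BN stood at 69.8 against 0.97 TPM and HIST2H2BF at 37.1 against 0.43. Many of these genes are near-identical and most of their transcripts carry no poly(A) tail, so single values are uncertain. Protocadherins had 4 of the 33 that entered higher and 8 lower, with a median of -0.49. That is 12.1% and 24.2%, against 13.0% and 10.2% over all genes that entered.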
